A study of Mus musculus with 4 samples.

Results

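The TNF superfamily pairs small trimeric ligands with receptors on the cell surface, and its members were followed here as regions of open chromatin. The regions were all peaks of the authors' deposited peak table whose assigned gene symbol begins with Tnfsf or Tnfrsf, or is Tnf, Lta, Ltb, Ltbr, Fas, Fasl, Cd40, Cd27, Cd70, Eda or Edar. There were 162 such peaks at 41 genes, out of 80881 peaks in the table. RefSeq holds 44 genes that match the rule, and Cd27, Tnfrsf4 and the antisense gene Tnfsf13os had no peak assigned to them. Of the 162 peaks, 62 belonged to 18 ligand genes and 100 to 23 receptor genes, with 1 to 11 peaks per gene. Cd40lg, Ngfr, Relt and Eda2r also name family members but fall outside the rule.

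Ligands of this family are made as membrane proteins and often shed, and most of their receptors recruit TRAF adaptors, which lead to NF-kB and MAP kinases. A subset of receptors carries a death domain and can instead start caspase cascades, and a further subset lacks a signalling tail and acts as decoys. In lung tumours the family is known for inflammation, for signals between tumour cells and lymphocytes, and for the control of cell death.

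The cells were KPC cells, a mouse lung adenocarcinoma line derived from the lung tumour of a KP mouse. Both groups carried Cas9, delivered by a lentivirus with puromycin selection, and a lentiviral CRISPR activation vector. In the group mA2 dRNA the guide was aimed at Malat1, a nuclear long noncoding RNA, and in the group Con dRNA at luciferase, which the mouse genome lacks. ATAC-seq, in which a transposase tags accessible DNA, was run on 2 libraries per group, 4 in all, described as biological replicates of a single cell line. The question was whether raising Malat1 changes chromatin accessibility.

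Read values below are group means of normalized reads, as the authors' deposited table lists them, and coordinates are mm10. In each pair of values joined by "against", the Malat1 guide comes first and the luciferase guide second. Each of the 162 peaks spans 401 bp, so peak width does not differ where levels of genes are set side by side. Other influences on read levels between loci were not examined. The per-library columns could not be tied to samples and were left aside, so no spread between libraries accompanies the means, and each difference rests on the authors' test across all peaks. A peak is called, or said to have risen or fallen, where the authors' deposited table gives it an adjusted p under 0.05. Differences are log2 of the mean with the Malat1 guide minus log2 of the mean with the luciferase guide. Folds and ratios are likewise of group means. The authors' own log2 fold was smaller, a median of 0.10 times the difference over family peaks. In a cell population, fewer cells with an open region and less opening per cell cannot be told apart. Over all peaks the median difference was 0.09 and the summed reads were 1.07 times as high with the Malat1 guide.

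At the targeted gene Malat1, 12 of 13 assigned peaks had the higher mean with its guide, and 1 was called, 9.41 kb upstream, with 991 against 684 reads and adjusted p 0.0279 by the authors' deposited table. Accessibility is not a measure of Malat1 RNA.

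Markers of cell identity were read as accessibility only. Over all peaks 2.23% were called higher and 0.507% lower. Promoter peaks were present at 5 of 8 lung epithelial markers (Cdh1, Foxa2, Krt8, Krt18 and Sftpb) and none was assigned to Nkx2-1, Sftpc or Epcam. Summed reads of the list were 15981 and 14869 over 76 peaks, with 2 called higher (2.63%). Nkx2-1 had the lower mean at all 3 of its peaks, which summed to 123 and 187 reads, with none called. Leukocyte markers had promoter peaks at 2 of 7 genes, Cd68 and Csf1r. Their summed reads were 1523 with the Malat1 guide and 1688 under the luciferase guide over 21 peaks, with 1 called lower (4.76%). Endothelial markers summed to 2732 and 1718 reads over 23 peaks, with 5 called higher (21.7%). All 5 were intergenic peaks assigned to Cdh5, from 24.4 to 148 kb from its start. The 6 peaks assigned to Cdh5 alone summed to 1134 and 222. Kdr, Pecam1 and Tek had no called peak. Fibroblast markers summed to 6216 and 5396 over 37 peaks, with 1 called higher (2.70%). The part of these markers in the results below was not tested.

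The promoter letters of 3 genes are shown because they carry the contrast described below: the start site of Tnfsf15 rose, that of Tnfsf11 had the next largest difference of any start site without a call, and that of Tnfrsf1b was nearly level while other peaks of the gene had larger ratios. They are the 250 bases before the RefSeq start on GRCm38.p6, the assembly of mm10, all read from the minus strand, 5′ to 3′. Capitals mark GGAATG or its reverse complement, the core recognised by TEAD factors. The windows are chr4:63745060-63745309 for Tnfsf15, chr14:78308044-78308293 for Tnfsf11 and chr4:145246871-145247120 for Tnfrsf1b.
Tnfsf15: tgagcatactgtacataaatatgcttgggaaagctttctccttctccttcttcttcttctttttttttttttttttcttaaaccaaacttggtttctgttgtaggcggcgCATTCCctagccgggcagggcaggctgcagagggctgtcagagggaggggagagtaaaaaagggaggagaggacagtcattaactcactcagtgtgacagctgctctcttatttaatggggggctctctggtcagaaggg
Tnfsf11: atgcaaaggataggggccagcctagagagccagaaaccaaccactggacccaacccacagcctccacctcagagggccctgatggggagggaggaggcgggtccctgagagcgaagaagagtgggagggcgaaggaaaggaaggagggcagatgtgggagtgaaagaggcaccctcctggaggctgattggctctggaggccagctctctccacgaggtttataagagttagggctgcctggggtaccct
Tnfrsf1b: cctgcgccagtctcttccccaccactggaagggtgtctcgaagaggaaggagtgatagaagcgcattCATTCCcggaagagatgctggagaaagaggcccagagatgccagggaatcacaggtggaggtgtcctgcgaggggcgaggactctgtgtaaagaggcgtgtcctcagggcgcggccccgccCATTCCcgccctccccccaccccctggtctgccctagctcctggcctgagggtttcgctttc
The peak over the start covered the last 125 of the 250 bases at Tnfsf15, all 250 at Tnfsf11 and the last 176 at Tnfrsf1b. The TEAD core stood once before Tnfsf15, with its first base 140 bases upstream of the start and outside the peak, and at 183 and 62 bases before Tnfrsf1b, of which the nearer lies in the peak. It was not found in the Tnfsf11 window. GC content was 46.8% for Tnfsf15, 60.4% for Tnfsf11 and 62.8% for Tnfrsf1b, beside a median of 52.4% over all windows.

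RefSeq windows were found for 32 of the 41 genes, and 38 windows of genes matching the rule were searched on both strands, Cd27 and Tnfrsf4 included. The TEAD core lay in 7 of the 38 (18.4%, against 12.6% of all 32851 windows of the same length) and the AP-1 motif TGANTCA in 6 (15.8%, against 6.75%). The 6 were at Fas, Tnfrsf8, Tnfsf13, Tnfsf13b, Tnfsf14 and the downstream start of Tnfrsf9. The RUNX core TGTGGT lay in 3 (7.89%, against 14.0%) and the NF-kB motif GGANTTTCC in 1, before Ltb (2.63%, against 1.07%). No match overlapped a match to another motif in these windows, and a match is a description of the letters alone.

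Across the family few peaks changed. Of the 162 peaks, 2 rose under the Malat1 guide and 1 fell, together 1.85%, while 2.73% of all peaks were called, 2.23% higher and 0.507% lower. Both higher calls belonged to Tnfsf15 and the lower call to Tnfsf4, so all 3 lay at ligands. None of the 100 receptor peaks was called, and 11 of them had an unadjusted p under 0.05 by the authors' deposited table, 4 higher and 7 lower. Whether ligands and receptors differ was not tested. At an unadjusted p under 0.05 by the authors' deposited table, 11 family peaks were higher and 9 lower. These are 12.3% of the family's peaks, while 11.7% of all peaks passed this mark, 8.86% higher and 2.85% lower. Of the 9 lower peaks, 5 belonged to Tnfrsf19. Means were higher under that guide at 101 of 162 peaks (62.3%, against 60.8% of all peaks), and the median difference of the family was 0.11. Over all peaks 1801 were called higher and 410 lower, so 81.5% of calls were higher, and this share was 68.9% (1307 and 590) once differences were centred on their median. With the same centring the family's count of higher means was 87, and its calls were 1 higher and 1 lower. With centring by 10 Mb window they were 0 and 0.

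**Figure D1:**
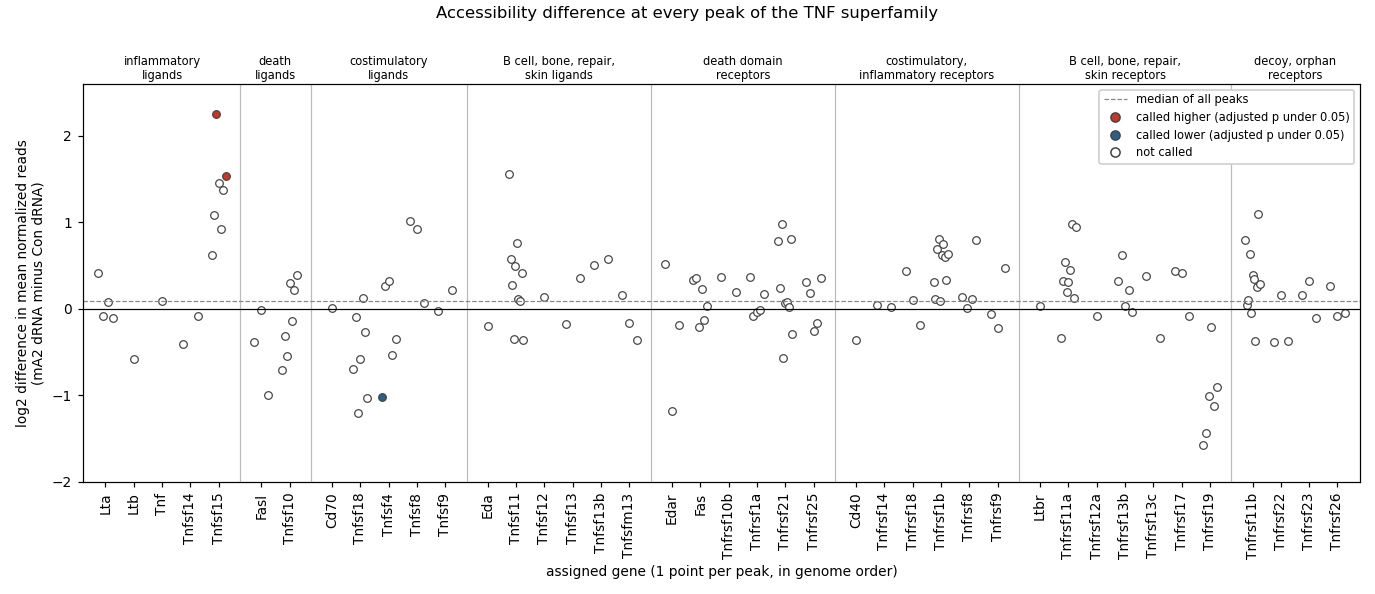
Log2 difference in mean normalized reads (mA2 dRNA minus Con dRNA) at each of the 162 peaks, 1 point per peak, grouped by assigned gene and role; filled points were called by the authors' adjusted p and the dashed line is the median of all peaks (0.09). The 7 Tnfsf15 points and the 10 Tnfrsf1b points all lie above 0, and the 6 Tnfrsf19 points all lie below it.

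A mean at least 2-fold higher with the Malat1 guide was found at 8 peaks (4.94%, against 6.01% of all peaks) and at least 2-fold lower at 9 (5.56%, against 1.65% of all peaks). The 8 were assigned to Tnfsf15, Tnfsf8, Tnfsf11 and Tnfrsf11b. The 9 came from few loci: Tnfrsf19, the neighbours Tnfsf4, Tnfsf18 and Fasl, and Edar. Among the 9 only the Tnfsf4 peak was called. The median family peak held 56.2 normalized reads over both groups, and the median of all peaks was 73.1. In the family 7 peaks exceeded 500 reads, and none of the 7 was called.

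**Figure D2:**
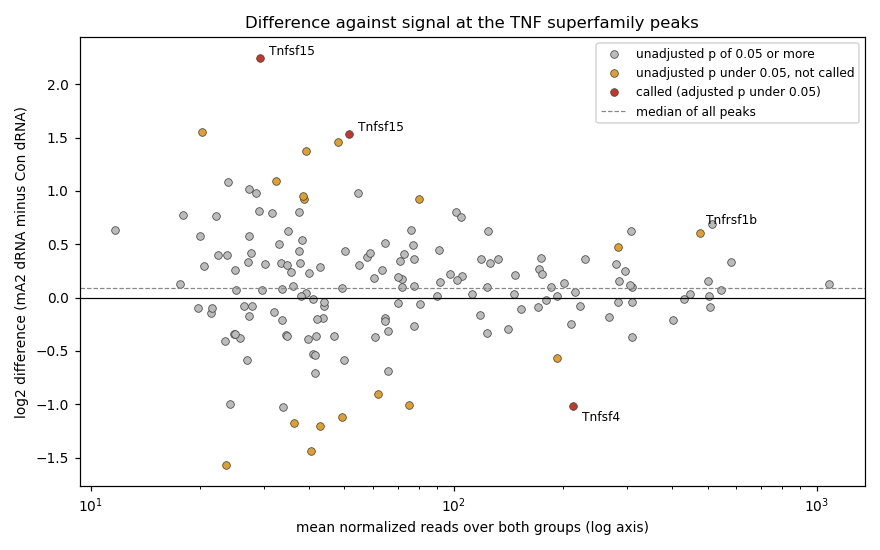
Log2 difference (mA2 dRNA minus Con dRNA) against mean normalized reads over both groups (log axis) for the 162 peaks, coloured by the authors' p-values; the dashed line is the median of all peaks. The called Tnfsf15 peaks lie on the weak side, and the called Tnfsf4 peak has a mean of 212 reads.

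Among the inflammatory ligands, Tnfsf15 had the peaks that rose. Tnfsf15 encodes TL1A, a ligand of the death domain receptor Tnfrsf25 that costimulates T cells. It (NCBI gene 326623) lies on chromosome 4 from 63724600 to 63745059 and had 7 peaks, all higher in the mA2 dRNA mean, and a median difference of 1.37. The promoter peak, chr4:63744784-63745184, held 48.4 reads under the Malat1 guide and 10.2 under the luciferase guide. That was 4.75-fold higher by the ratio of means, while the authors' own log2 fold was 1.24. The adjusted p was 0.0167 by the authors' deposited table. The control level was the lowest of all 32 family genes with a peak within 3 kb of the start site.

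The second called Tnfsf15 peak lies 51.4 kb upstream in intergenic sequence, chr4:63796512-63796912, and held 76.5 against 26.5 reads. It was 2.89-fold higher by the ratio of means (authors' log2 fold 0.93), with adjusted p 0.0413 by the authors' deposited table. Between these called peaks lie 3 more that were not called: the peak 7.53 kb upstream held 70.5 against 25.7 reads, the peak 11.1 kb upstream 50.5 against 26.7, and the peak 28.2 kb upstream 56.6 against 21.9. The first of them was the family peak closest to the threshold without a call, with adjusted p 0.0605 by the authors' deposited table. Inside the gene, an intronic peak 1.07 kb from the start held 32.5 against 15.4 reads. The strongest peak, 26.8 kb downstream of the start and past the gene's end, had the smallest difference of the 7, 150 against 97.5 reads.

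Higher means were also found at Tnfsf8, the ligand of the CD30 receptor Tnfrsf8 and the neighbour of Tnfsf15 on the same chromosome. All 3 Tnfsf8 peaks had the higher mean and none was called. An intergenic peak 55.0 kb upstream held 105 against 55.6 reads (adjusted p 0.249 by the authors' deposited table), and an intronic peak held 36.5 against 18.1. The farthest, 86.7 kb upstream, held 30.3 against 28.9 reads, and its sign turned under each of 4 ways of centring.

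The surroundings of this pair of genes were higher too. Within 500 kb of the 231 kb span lay 47 peaks of other genes, of which 44 had the higher mean, with a median difference of 0.57 against 1.05 at the 10 Tnfsf15 and Tnfsf8 peaks. Among those 47 peaks 2 were called higher. The 10 Mb window had a median difference of 0.35, with 15 of its 133 peaks called higher and 0 lower. Over all peaks 2.23% were called higher and 0.507% lower. With differences centred on that window, all 7 Tnfsf15 peaks still had the higher mean, with a median of 1.02, but neither call was kept: the adjusted p became 0.0848 at the promoter and 0.233 at the upstream peak. The upstream call was also lost on centring by all peaks, by abundance or by chromosome, with adjusted p of 0.0715, 0.0926 and 0.0783, while the promoter call was kept under these. Over all alternatives run, the adjusted p ranged from 0.0161 to 0.0848 at the promoter and from 0.0399 to 0.233 at the upstream peak.

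**Figure D3:**
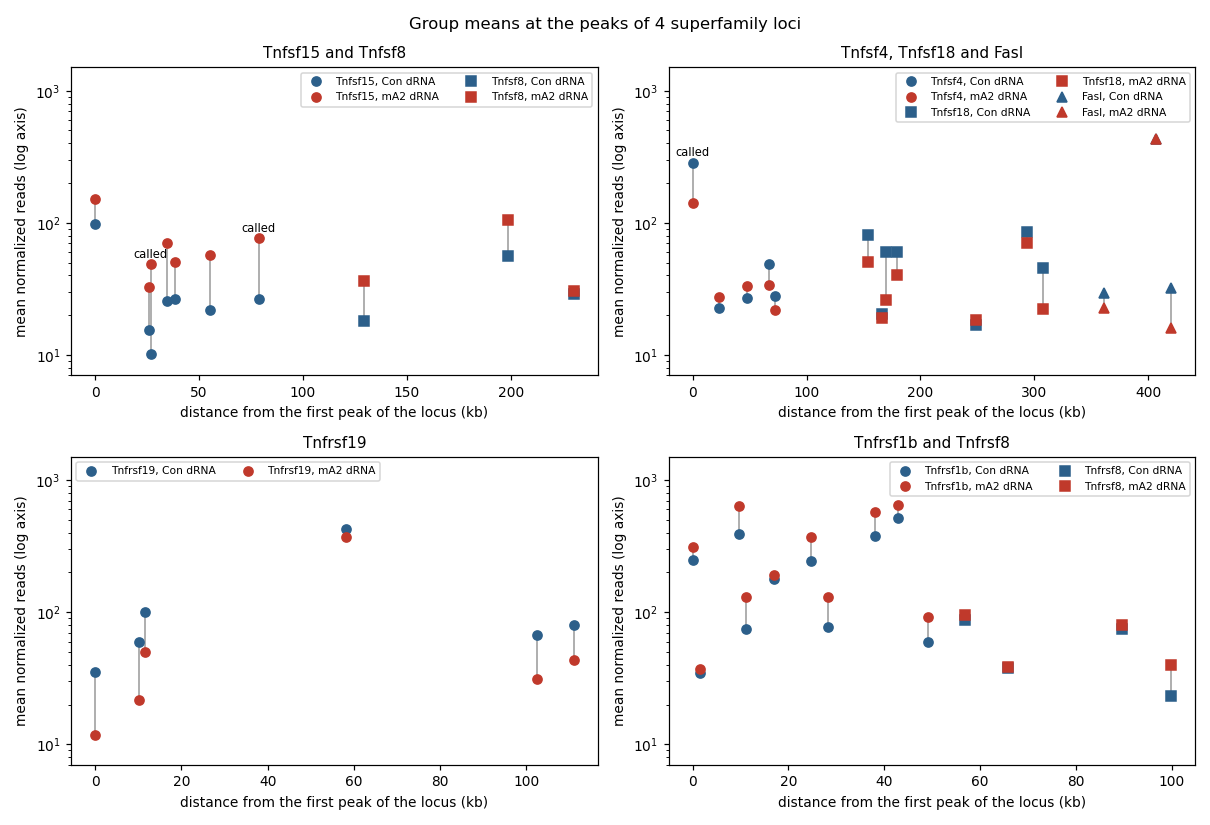
Mean normalized reads (log axis) with the Malat1 guide (mA2 dRNA, red) and the luciferase guide (Con dRNA, blue) at each peak of 4 loci, placed by distance in kb from the first peak of the locus, with a line joining both means of a peak; marker shapes give the assigned gene and called peaks are labelled. Red lies above blue at all 10 Tnfsf15 and Tnfsf8 peaks and all 14 Tnfrsf1b and Tnfrsf8 peaks, and below it at all 6 Tnfrsf19 peaks and at 12 of the 15 Tnfsf4, Tnfsf18 and Fasl peaks.

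The other inflammatory ligands had no called peak. Tnf, Lta and Ltb, which encode TNF and the lymphotoxins, lie beside each other on chromosome 17 and had 6 peaks, 3 with the higher mean. The single peak assigned to Tnf, exonic and 1.19 kb from the start, held 50.7 against 47.6 reads. The Lta promoter peak held 31.6 against 23.6 reads, and the Ltb peak, 1.83 kb upstream, 21.6 against 32.4. The smallest adjusted p among the 6 was 0.834 in the authors' deposited table, at Ltb. Tnfsf14, which encodes LIGHT, had 2 peaks with 25.7 against 27.2 and 20.2 against 26.7 reads.

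Among the costimulatory ligands, a single region fell. Tnfsf4 encodes the OX40 ligand, which sustains activated T cells. Its called peak lies 67.2 kb upstream in intergenic sequence, chr1:161327851-161328251, and held 141 reads under the Malat1 guide and 284 under the luciferase guide. It was 2.02-fold lower by the ratio of means (authors' log2 fold -0.79), with adjusted p 0.0279 by the authors' deposited table. The call was lost on centring by 10 Mb window, with a range of adjusted p from 0.0146 to 0.0795 over the alternatives run. The other 4 Tnfsf4 peaks were weak and went both ways: the promoter peak held 33.6 against 48.5 reads, and the peak 19.2 kb upstream 33.4 against 26.8.

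Next to Tnfsf4 on chromosome 1 lie Tnfsf18, the ligand of the GITR receptor, and Fasl, the ligand of the death receptor Fas. At Tnfsf18 6 of 7 peaks had the lower mean, with a median difference of -0.58 and none called. The intronic Tnfsf18 peak 2.65 kb from the start held 26.0 against 59.8 reads, with adjusted p 0.345 by the authors' deposited table. The peak 141 kb downstream held 22.3 against 45.3 reads, while the promoter peak held 19.1 against 20.4. All 3 Fasl peaks had the lower mean, from 16.1 against 32.2 reads at the peak 40.0 kb from the start to 429 against 433 at the strongest peak, 53.3 kb from the start.

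Over Tnfsf4, Tnfsf18 and Fasl together, 12 of the 15 peaks had the lower mean, with a median difference of -0.38. The 44 peaks of other genes within 500 kb had a median of -0.09, 15 of them higher, and none was called. The 10 Mb window had a median of -0.10, with 1 of its 422 peaks called higher and 8 lower, beside 2.23% and 0.507% of all peaks. After centring on this window 10 of the 15 had the lower value.

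The remaining costimulatory ligands had no called peak. Tnfsf9, the 4-1BB ligand, had a promoter peak with 158 against 137 reads and a peak 8.53 kb upstream with 178 against 181. Cd70, the ligand of Cd27, had a single peak 17.2 kb upstream with 90.4 against 89.6 reads. Among the 18 costimulatory ligand peaks, 1 was called (5.56%, beside 2.73% of all peaks, of which 2.23% were higher and 0.507% lower).

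Tnfsf10 encodes TRAIL, which kills cells through the receptor Tnfrsf10b. It had 7 peaks, 3 with the higher mean, and none was called. Its promoter peak held 105 against 90.5 reads, and the largest difference, at a peak 65.5 kb upstream, was 31.6 against 51.5 (adjusted p 0.756 by the authors' deposited table). Tnfrsf10b had a promoter peak with 113 against 98.1 reads and a peak 3.56 kb upstream with 196 against 151.

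Fas, the receptor of Fasl, lies on chromosome 19 and had 6 peaks. The promoter peak was the strongest, with 259 against 202 reads and adjusted p 0.760 by the authors' deposited table. The Fas promoter window holds the AP-1 motif, with its first base 211 bases before the start. The other 5 Fas peaks held between 30.2 and 114 reads under the Malat1 guide and between 24.0 and 111 under the luciferase guide.

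The remaining death domain receptors had no called peak. Tnfrsf1a, the main receptor of TNF on most cells, had 5 peaks, and its promoter peak held 217 against 229 reads. Tnfrsf21, known as DR6, had 9 peaks, 7 with the higher mean, but after centring on all peaks only 4. Its promoter peak was among the most accessible of the family, with 509 against 503 reads. A Tnfrsf21 peak 34.4 kb upstream held 155 against 230 reads, with adjusted p 0.378 by the authors' deposited table. Tnfrsf25, the receptor of Tnfsf15, had 5 peaks, and the strongest, which lies within Plekhg5, held 192 against 228 reads. Edar, the receptor of ectodysplasin in hair and tooth development, had a promoter peak with 40.9 against 46.7 reads. The intronic Edar peak 22.6 kb from the start held 22.3 against 50.4 reads (adjusted p 0.302 by the authors' deposited table). Across the 30 death domain receptor peaks, 2 had an unadjusted p under 0.05 by the authors' deposited table. That is 6.67%, below the 11.7% of all peaks, of which 8.86% were higher and 2.85% lower. The 2 were these Tnfrsf21 and Edar peaks, both lower.

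Tnfrsf1b, the inducible TNF receptor TNFR2, had the higher mean at all 10 of its peaks, and none was called. It lies on chromosome 4 from 145212368 to 145246870, and its peaks span the gene and the sequence upstream. The peak closest to a call, chr4:145267785-145268185, held 574 reads under the Malat1 guide and 377 under the luciferase guide, a ratio of 1.52, with adjusted p 0.0612 by the authors' deposited table. Its unadjusted p there was 0.00183. This peak lies 20.9 kb upstream of Tnfrsf1b and inside Tnfrsf8, the CD30 receptor gene, so the assigned gene and the gene that holds it differ. The same holds for the peaks 25.8 kb upstream, with 648 against 514 reads, and 32.1 kb upstream, with 92.7 against 59.9.

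The promoter peak of Tnfrsf1b was nearly level, with 191 against 179 reads. The intronic peak 7.08 kb into the gene held 633 against 393 reads with adjusted p 0.822 by the authors' deposited table, and the peak 5.50 kb into the gene 129 against 74.0. Upstream, the intergenic peaks at 7.53 kb and 11.2 kb held 373 against 243 and 131 against 77.8 reads. The median difference of the 10 peaks was 0.61, and after each of 4 ways of centring 9 or 10 of them had the higher mean. The 4 peaks assigned to Tnfrsf8 itself held from 38.3 to 96.0 reads under the Malat1 guide and from 23.2 to 87.0 under the luciferase guide, with a median difference of 0.13. The 29 peaks of other genes within 500 kb had a median difference of 0.05, and the 10 Mb window 0.09. All 29 lay at lower coordinates, past the end of Tnfrsf1b. Beyond Tnfrsf8 there were 0, so that side had no other peaks to compare.

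The other receptors of this class, which act in T cell and antigen-presenting cell costimulation, had no called peak. Tnfrsf9, the 4-1BB receptor, had its strongest peak at a downstream start site, with 330 against 238 reads, an unadjusted p of 0.0440 and adjusted p 0.400 by the authors' deposited table. The AP-1 motif in the window of that start has its first base 15 bases upstream. The other Tnfrsf9 peaks held 79.0 against 82.1 and 59.6 against 69.4 reads. Tnfrsf18, or GITR, had a peak past the gene's end with 320 against 299 reads and a promoter peak with 43.0 against 31.9. Tnfrsf14, or HVEM, had a promoter peak with 39.8 against 38.5 reads, and the single Cd40 peak, 14.7 kb from the start, held 36.6 against 47.1.

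Tnfrsf19 had the lower mean at all 6 peaks, 5 of them with an unadjusted p under 0.05 by the authors' deposited table, and none was called. Tnfrsf19, or TROY, is an orphan receptor of epithelial progenitors and the nervous system, and lies on chromosome 14 from 60963834 to 61046855. Its promoter peak held 43.2 reads under the Malat1 guide and 80.6 under the luciferase guide. The peak at a downstream start, 8.34 kb into the gene, held 31.0 against 67.4. A peak 99.0 kb from the start and past the gene's end held 50.0 against 101 reads, and at 0.150 its adjusted p by the authors' deposited table was the smallest of the 6.

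Beside that peak lie the Tnfrsf19 peaks at 100 kb, with 21.8 against 59.0 reads, and at 111 kb, with 11.8 against 35.2, the lowest ratio in the family. The strongest peak, intronic, differed least, with 371 against 430 reads. The median difference was -1.07, and all 6 had the lower value under each of the 4 centrings. The 36 peaks of other genes within 500 kb had a median of 0.08, 19 of them higher, with none called. In the 10 Mb window of 396 peaks 1 was called higher and 11 lower, beside 2.23% and 0.507% of all peaks, with a median of -0.01.

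The ligand RANKL, its receptor RANK and the decoy receptor osteoprotegerin govern the formation of osteoclasts, and their genes Tnfsf11, Tnfrsf11a and Tnfrsf11b held 30 of the family's peaks. The mean was higher at 25 of the 30, with a median difference of 0.31, and none was called. After centring by 10 Mb window 19 of the 30 were higher, and the median of Tnfrsf11b turned to -0.03. The Tnfsf11 promoter peak, chr14:78307945-78308345, held 30.3 reads under the Malat1 guide and 10.3 under the luciferase guide, a ratio of 2.94. The authors' log2 fold there was 0.39, with adjusted p 0.213 by the authors' deposited table. The remaining Tnfsf11 peaks, from 15.3 kb to 112 kb upstream, included 7 of 9 with the higher mean, and the strongest held 317 against 293 reads. The Tnfrsf11a peak 86.1 kb from the start was the strongest of the whole family, with 1130 against 1036 reads, and the Tnfrsf11a promoter peak held 140 against 112.

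For Tnfrsf11b, the promoter peak held 321 against 270 reads, and the largest difference was at an intergenic peak 15.9 kb upstream, with 44.0 against 20.7 (adjusted p 0.328 by the authors' deposited table). Peaks of other genes within 500 kb of Tnfrsf11b had a median difference of 0.41, above the 0.29 of its own 11 peaks. Of these 36 peaks 3 were called higher, beside 2.23% of all peaks. Around Tnfsf11 the median of other peaks was -0.06 and around Tnfrsf11a 0.09.

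Ligands and receptors of B cells and tissue repair had no called peak. Tnfrsf12a, or Fn14, the receptor of the repair ligand TWEAK, had a single peak at its promoter with 493 against 523 reads. Tnfsf12, which encodes TWEAK, held 211 against 192 reads at its promoter, and Tnfsf13, which encodes APRIL, 252 against 285. Ltbr, the lymphotoxin beta receptor, held 452 against 441 at its promoter. Tnfsf13b, which encodes BAFF, had a promoter peak with 38.6 against 27.3 reads, and the promoter of Tnfrsf13c, the BAFF receptor, held 65.1 against 50.1. Tnfrsf13b and Tnfrsf17, the receptors TACI and BCMA of the B lineage, had 8 peaks, 6 with the higher mean. The single Eda peak, at its promoter, held 39.0 against 44.8 reads. Tnfsfm13, a fused gene of Tnfsf12 and Tnfsf13, had 3 intergenic peaks from 30.4 to 111 reads under the Malat1 guide and from 39.2 to 125 under the luciferase guide.

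Decoy TRAIL receptors were among the accessible members. Tnfrsf22, Tnfrsf23 and the orphan Tnfrsf26 form a cluster on chromosome 7 with 9 peaks, 4 with the higher mean and none called. The Tnfrsf23 promoter peak held 529 against 475 reads and the Tnfrsf22 promoter peak 300 against 269. Tnfrsf26 held 69.2 against 57.7 reads at its promoter, and the smallest adjusted p of the cluster was 0.843 in the authors' deposited table.

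At start sites the family ranged widely in accessibility. A peak within 3 kb of the start was found for 32 of the 41 genes, 21 with the higher mean and 11 with the lower. Tnfrsf12a, Tnfrsf21, Tnfrsf23 and Ltbr, all receptors, held over 400 reads in both groups. The lowest control levels were at Tnfsf15, Tnfsf11 and Tnfsf18, all ligands. The family's 32 promoter-class peaks, at 29 genes, included 6 above 272 reads, the median of all promoter peaks. A difference of at least 1.5-fold in either direction was seen at 3 start sites, higher at Tnfsf15 and Tnfsf11 and lower at Tnfrsf19.

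**Figure D4:**
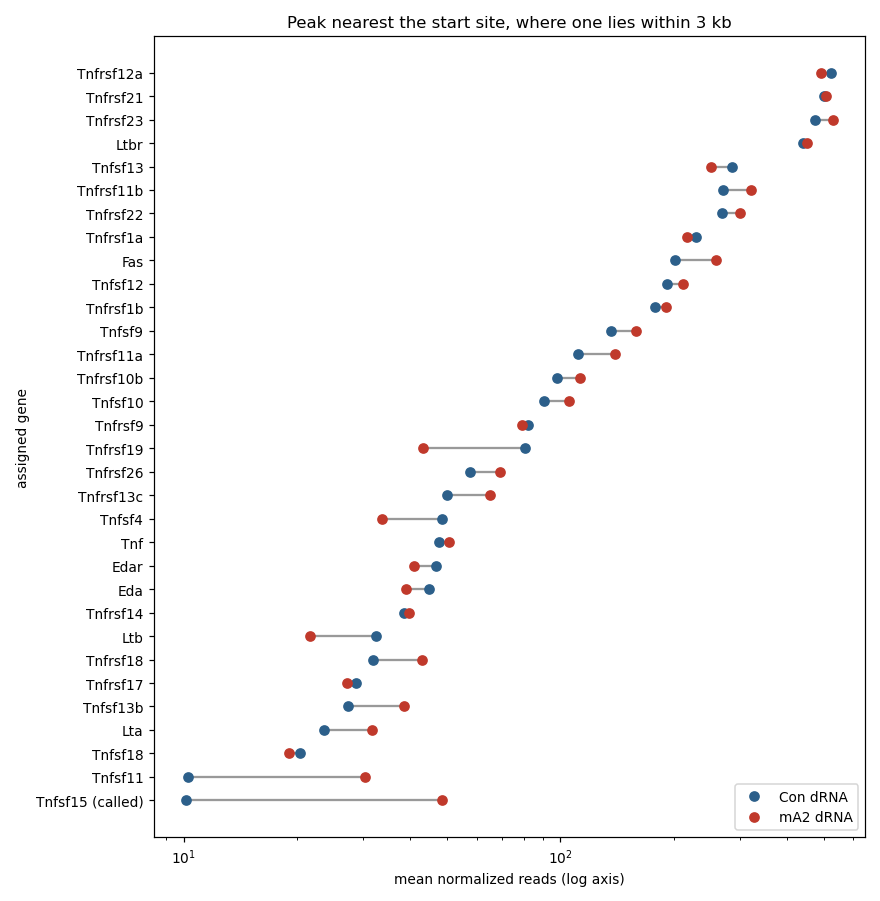
Mean normalized reads (log axis) with the Malat1 guide (mA2 dRNA, red) and the luciferase guide (Con dRNA, blue) at the peak nearest the start site for the 32 genes with a peak within 3 kb, ordered by the control level. The longest lines join 10.2 and 48.4 reads at Tnfsf15 and 10.3 and 30.3 at Tnfsf11.

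Downstream of the receptors, the genes of the pathway were taken from 3 lists of adaptors, cell death machinery and NF-kB components. The 11 TNF receptor adaptor genes held 74 peaks, 53 with the higher mean (71.6%, against 60.8% of all peaks). Of the 74, 2 were called higher and 2 lower, together 5.41%, beside 2.73% of all peaks, of which 2.23% were higher and 0.507% lower. The lowest adjusted p was at a peak assigned to Traf1, a TRAF adaptor induced by NF-kB. This peak lies 20.4 kb upstream of the Traf1 start and inside the gene model Gm52552. It fell from 193 to 49.8 reads, 3.88-fold, with adjusted p 7.23e-05 by the authors' deposited table. Of the 6 peaks assigned to Traf1, 4 had the higher mean. The second lower peak was assigned to Traf3, a brake on noncanonical NF-kB signalling, but lies 61.2 kb upstream of its start and inside the gene Rcor1. It held 37.8 against 103 reads, with adjusted p 0.0136 by the authors' deposited table.

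Both higher adaptor calls lay away from start sites. A peak assigned to Tank, a TRAF-binding regulator, 32.5 kb upstream of its start, held 88.9 against 29.9 reads (adjusted p 0.0236 by the authors' deposited table). A peak assigned to Fadd, which links death receptors to caspase-8, lies 30.4 kb upstream of its start and inside the gene Ano1, and held 256 against 109 reads, with adjusted p 0.0398 by the authors' deposited table. The promoter of Birc3, an inhibitor of apoptosis, held 464 against 251 reads without a call (adjusted p 0.101 in the authors' deposited table). In the other direction, the Traf5 promoter held 640 against 815 reads, also without a call (adjusted p 0.126 in the authors' deposited table). Of the 6 peaks assigned to Traf5, 5 had the lower mean.

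The 10 cell death genes held 47 peaks, 33 with the higher mean and a median difference of 0.26. None of these 47 peaks was called by the authors' test, while 2.73% of all peaks were. Of the 47, 6 had an unadjusted p under 0.05 by the authors' deposited table, all higher. That is 12.8% of the list, near the 11.7% of all peaks. Peaks were assigned to 15 of 16 NF-kB genes, 86 peaks in all, 55 of them with the higher mean. Only 1 was called (1.16%, beside 2.73% of all peaks). The called peak was an exonic peak of Ikbkb, the kinase that releases canonical NF-kB, with 368 against 192 reads and adjusted p 0.0169 by the authors' deposited table. The other Ikbkb peak, at the promoter, had the lower mean, with 145 against 163 reads and no call. With centring by chromosome or by 10 Mb window, 0 of the 3 higher pathway calls, at Tank, Fadd and Ikbkb, passed the threshold. The promoter peak of Nfkb2, the precursor of the noncanonical subunit, held 1262 against 902 reads without a call (adjusted p 0.0755 in the authors' deposited table).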

How the data were processed

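ATAC-seq libraries of 2 groups, 2 libraries each, were compared through the authors' deposited peak table of 80881 mm10 peaks. The submitters' processing notes name DiffBind, MACS2, Bowtie2, ChIPseeker, Picard, FastQC and deepTools, without versions or settings. Per the file headers, the authors deposited log2 mean reads per group, their log2 fold, p-values, adjusted p-values, a gene for each peak and how far in bp its start site lies. The group columns are headed dmA12 and dLuc. They were taken as the Malat1 and luciferase guides because the series has a single contrast of those guides, and the header's dmA12 does not match the label mA2 letter for letter. The table has 4 per-library value columns whose names match no label. They were not used, so depth per library and replicate spread are not given, and no count model was run.

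Differences were recomputed from the group means, because the authors' own log2 fold was smaller (a median of 0.10 times the difference over family peaks). The deposited adjusted p-values equal Benjamini-Hochberg adjustment over all peaks to within 7.4e-06. For centring, a standard error was derived from each difference and its p-value, and p-values were recomputed on the normal scale. The procedure was tested on simulated data. Promoter windows came from RefSeq, GRCm38.p6, and replaced a planned motif search in the peaks, for which no genome was used here. The promoter search was chosen after seeing the data. The members and gene lists were chosen with earlier results of these data known.

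Peaks named by rule were those called, the 3 with the smallest p and the strongest in each role group, the peak nearest each start within 3 kb, the 3 closest to a call, and each called pathway peak. Other peaks named were chosen after their values were seen. Python 3.11.15, numpy 2.4.6, pandas 2.3.3, scipy 1.17.1 and matplotlib 3.10.9 were used.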

Additional observations from a re-analysis of the deposited data

How the results depend on the processing

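No paired analysis was possible because columns of single libraries name neither a sample nor a replicate. For the same reason the planned per-library fits with edgeR, limma or DESeq2 size factors, other pseudocounts and leaving out each library were not run. Of the 65 peaks named by rule, 46 kept direction and call under every alternative run, and 411 of their 454 values did. Most of the 65 were not called to begin with, so for them this mostly means staying uncalled. Among the called peaks, only the Traf1 peak stayed called under every threshold and centring. The cause of the changes below was not tested, beyond the smaller sets that a distance limit leaves. Family peaks called higher numbered 2, and 0 at an adjusted p under 0.01, 4 under 0.1, 1 with differences centred on all peaks, on abundance or on chromosomes, 0 on 10 Mb windows, and 1 within 50 kb or 3 kb of the start. The 1 family peak called lower became 0 at 0.01, with window centring, and within 50 kb or 3 kb. Pathway peaks called higher numbered 3, and 0 at 0.01, 5 at 0.1, 2 with centring on all peaks or abundance, 0 by chromosome or window and 0 within 3 kb. Those called lower numbered 2, and 1 at 0.01, 3 with centring on all peaks or abundance, 1 within 50 kb and 0 within 3 kb. The median family difference of 0.11 was 0.080 per gene, 0.012 by the authors' fold, 0.021 centred on all peaks, 0.044 on abundance, 0.036 on chromosomes and 0.020 on windows. Of all peaks, 1289 and 564 were called higher and lower with abundance centring, 1179 and 478 by chromosome and 1069 and 445 by window. Signs turned under 1 or more of the 4 centrings at 25 of the 162 family peaks, 10 of them among those named by rule. With centring on all peaks, abundance, chromosomes and windows in that order, the log2 difference was -0.045, -0.076, -0.049 and -0.049 at the Tnfrsf14 promoter, -0.074, -0.049, -0.025 and -0.025 at the Tnfrsf21 promoter, and -0.056, -0.031, -0.0085 and -0.12 at Ltbr. It was -0.0018 and -0.056 at Tnf with the first pair and -0.019 at the strongest Tnfrsf21 peak with the first. It was -0.00068 at the Tnfrsf1b promoter by chromosome. By window it was 0.00028 at the Tnfsf18 promoter, 0.086 at the strongest Fasl peak, -0.063 at the Tnfrsf11b promoter and -0.078 at the strongest Tnfrsf11a peak. Weak peaks limit what can be seen: 4 family peaks had under 20 reads.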

Other observations

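Family members outside the naming rule, and the adaptor gene Edaradd, were read in the same table, and were chosen after their values were seen. Eda2r, a receptor of ectodysplasin and a known p53 target, had the higher mean at 7 of 7 peaks, with a median difference of 0.51 and none called. Its promoter peak held 101 against 50.0 reads, with adjusted p 0.269 by the authors' deposited table, and an intronic peak 83.1 against 41.4. Edaradd, the adaptor of Edar, had the lower mean at all 3 of its peaks, from 17.3 against 23.0 reads to 123 against 154 at the promoter. Ngfr, the neurotrophin receptor, went both ways, with 60.0 against 22.8 reads at one peak and 45.7 against 81.1 at another, and neither was called. Relt held 414 against 399 reads at its promoter.

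Tnc, which encodes the matrix protein tenascin C and lies beside Tnfsf8, had the higher mean at 9 of 10 peaks, with a median difference of 0.47 and none called. Its promoter peak held 201 against 123 reads, with adjusted p 0.305 by the authors' deposited table. Tnc was also chosen after its values were seen.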
